A study of Saccharomyces cerevisiae with 12 samples.

Results

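The interior of chromosome V of budding yeast, Saccharomyces cerevisiae, is the stretch more than 30 kb from either end of the chromosome, which runs to base 576874 of the build sacCer3 (R64). It was taken as every 1000-bp row of the deposited table that lies on chromosome V with its centre in that stretch, from chrV:30001 to chrV:547000. Of 517 such rows, 10 were left out because a ratio of exactly 0 stood in at least 1 column, and 507 remained, of 11630 nuclear rows used and 12165 rows in the whole table. The centromere, at 152.0 kb, leaves 122 rows on the left and 385 on the right.

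Wild-type cells (strain w303a) and cells of strain JG2087, which carry the mutation eco1-W216G, were compared. Cells of both strains grew in YPD, were held in G1 for 2 h with α-factor, the mating pheromone that arrests cells before S phase, and were released from it by washing in medium with a protease. Genomic DNA was taken at 0, 20 and 40 min after release and sequenced, with 2 libraries per strain and time and 12 in all. The labels give 1 strain for each genotype, so the mutation and anything else that sets JG2087 apart from w303a cannot be told apart, and they do not say whether replicates came from separate cultures. Every p-value below thus rests on a spread between libraries that may be technical.

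Eco1 modifies cohesin, the ring complex that holds sister chromatids together: it adds acetyl groups to the Smc3 subunit while the DNA is being copied in S phase. Chromosomes are copied from many origins, some of which fire early in S phase and others late. A ratio of DNA in S phase to DNA in G1 therefore peaks around early origins and dips in late regions, and the ratios of a whole chromosome centre on those of the rest of the genome when each chromosome is copied in step with the others. A shift of the whole chromosome is a different quantity from the height of its peaks, and the sections below keep them apart. In DNA from a culture, a change in a few cells and a smaller change in every cell cannot be told apart.

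Each ratio is the log2 of DNA at 20 or 40 min over DNA at 0 min of the same strain and replicate, and levels are given over the nuclear median of their column, on that log2 scale. The library totals that scale the ratios, recovered from their values, ran from 5293237 to 10362815 reads. Whole reads recovered for the rows summed to 1.03 to 1.04 times these totals, for reasons that were not tested. The median row of the chromosome V interior held 470 to 968 recovered reads. From counting error alone, the ratio of a typical row has an SD of 0.0682 to 0.0888, and that of a 10-kb window one of 0.0215 to 0.028. All intervals on reads below cover counting error only.

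The chromosome V interior stood higher in the eco1 mutant than in wild type at both times. At 20 min its mean level was 0.0102 and 0.00111 in the wild-type replicates and 0.116 and 0.114 in the eco1 replicates. At 40 min it was 0.0314 and 0.0328 in wild type and 0.115 and 0.0944 in eco1. Both eco1 replicates lay above both wild-type replicates at each time, and the gap between the nearest replicates was 0.104 at 20 min and 0.0616 at 40 min. They also lay above on the interiors of I, II, III and IX at each time. On all other chromosomes they lay below, except VIII at 20 min and VII, VIII and XII at 40 min, where the strains overlapped. Strains that do not overlap are thus common among the chromosome interiors.

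The difference at 20 min was 0.11 (SE 0.00855, n = 2 per group, limma over the 16 chromosome interiors, adjusted p = 3.04e-07), a 1.08-fold ratio with a 95% interval of 0.0908 to 0.129 on the log2 scale. At 40 min it was 0.0725 (adjusted p = 1.76e-05), or 1.05-fold. In that fit 25% of the chromosome interiors were called higher at each time, and 43.8% at 20 min and 31.2% at 40 min were called lower, so a call by itself is common here. Scaling every column to the same SD left 0.0357 at 40 min (limma, adjusted p = 0.00429).

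**Figure D1:**
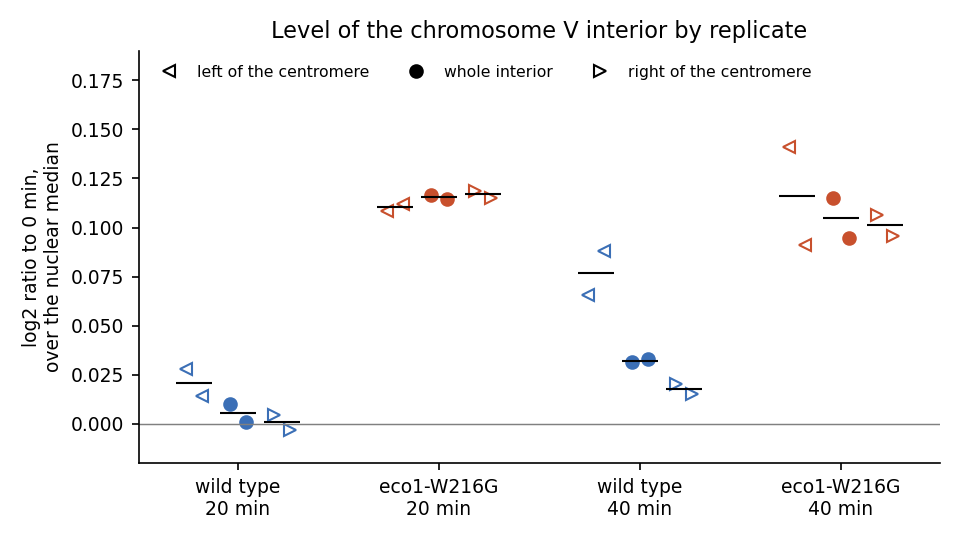
Mean log2 ratio to 0 min over the nuclear median (y axis) of the chromosome V interior and of its parts left and right of the centromere, for each strain and time (x axis). Each symbol is 1 replicate and each bar the mean of 2; the eco1 symbols for the whole interior lie between 0.0944 and 0.116 and the wild-type ones between 0.00111 and 0.0328.

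From 20 to 40 min the wild-type level moved by 0.0264 (limma, adjusted p = 0.0844, and 0.0029 to 0.518 over 14 alternatives) and the eco1 level by -0.0107 (adjusted p = 0.892). The strains' changes differed by -0.0371 (limma, adjusted p = 0.171, and 0.00114 to 0.599 over 14 alternatives). Both wild-type replicates were higher at 40 than at 20 min and both eco1 replicates lower, and no chromosome interior was called in any of these contrasts. These fits did not pair the 20- and 40-min columns of a replicate, which share a 0-min library. With a replicate block within strain, limma gave adjusted p = 0.192 for wild type and 0.979 for eco1. For the difference between the strains' changes it gave 0.302.

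The reads show the same quantity without a ratio. In wild type the chromosome V interior held 4.41% and 4.44% of nuclear reads at 0 min, 4.42% and 4.42% at 20 min, and 4.49% and 4.49% at 40 min. In eco1 it held 4.47% and 4.47% at 0 min, 4.83% and 4.82% at 20 min, and 4.78% and 4.79% at 40 min. The 4 eco1 libraries taken after release lie above every other library, and the eco1 libraries of 0 min lie above the wild-type libraries of 0 and 20 min and below those of 40 min. The lowest of the 4 has an exact 95% binomial interval of 4.77 to 4.79%, and the highest wild-type library one of 4.48 to 4.51%.

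**Figure D2:**
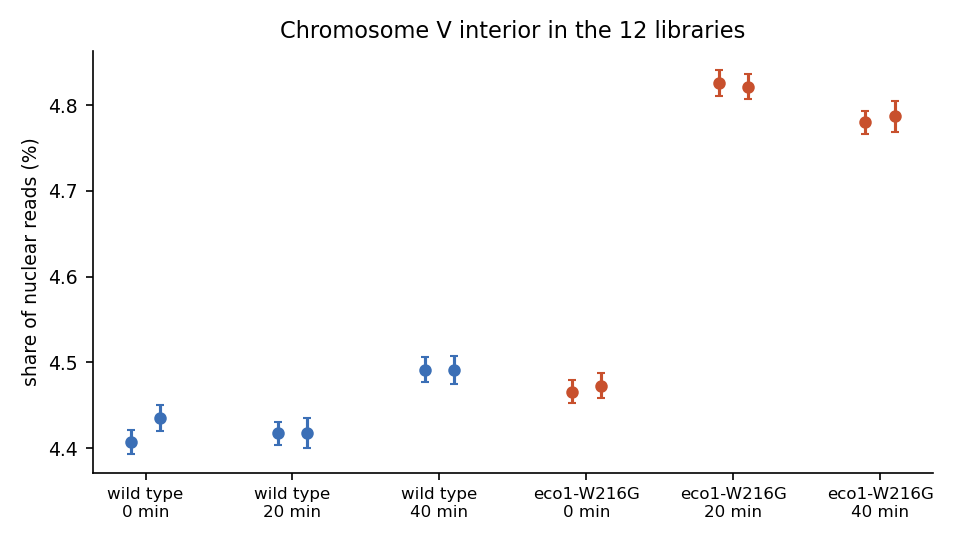
Share of nuclear reads that fall in the chromosome V interior (y axis, percent, not starting at 0) in the 12 libraries, grouped by strain and time (x axis). Points are libraries and bars exact 95% binomial intervals; the 4 eco1 libraries of 20 and 40 min lie at 4.78 to 4.83%, all others at 4.41 to 4.49%.

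A small difference was present before release. Over the wild-type mean at 0 min, the level of the interior was -0.00522 and 0.00381 in the wild-type libraries and 0.0183 and 0.023 in the eco1 libraries. The difference of 0.0214 (SE 0.00407) passed the test (limma over 16 chromosome interiors, adjusted p = 0.0341), but not without either eco1 library of 0 min (0.0237 with adjusted p = 0.137 and 0.019 with adjusted p = 0.175). At 0 min 18.8% of the chromosome interiors were called higher in eco1 (25% in either direction), and I and III differed by more than V, by 0.124 and 0.0533. The deposited ratios divide each strain by its own 0-min library. With both strains set over the wild-type 0-min libraries instead, the difference between strains was 0.137 at 20 min and 0.1 at 40 min. As deposited it was 0.11 and 0.0725.

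On both sides of the centromere the eco1 level was higher. At 20 min the left part stood at 0.0278 and 0.0143 in wild type and at 0.109 and 0.112 in eco1, and the right part at 0.00464 and -0.00307 in wild type and at 0.119 and 0.115 in eco1. The difference between strains was 0.0893 on the left and 0.116 on the right, with no overlap between strains on either side. At 40 min the left part stood at 0.0656 and 0.088 in wild type and at 0.141 and 0.0908 in eco1. These left-hand groups are separated by only 0.00285, while the right-hand groups, at 0.0205 and 0.0153 against 0.107 and 0.0956, are 0.075 apart.

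In wild type the mean level was lower right of the centromere than left of it, with a right-minus-left difference of -0.0232 and -0.0174 at 20 min and of -0.0451 and -0.0727 at 40 min. The row medians went the other way in wild-type replicate 1 at 20 min, with -0.00819 on the left and 0.00295 on the right. They went the same way as the means in replicate 2 at 20 min and in both replicates at 40 min. In eco1 the right-minus-left difference of the means was 0.0102 and 0.00287 at 20 min and -0.0341 and 0.00473 at 40 min. Between strains it differed by 0.0268 at 20 min and 0.0442 at 40 min (two-sided exact permutation test, p = 0.33 at both times, the smallest p that 2 against 2 allows). Across the 16 chromosomes, with arms taken from gene names, limma gave adjusted p = 0.399 and 0.14 for the same differences. At 0 min the eco1 libraries already stood at 0.0337 and 0.0354 on the left and at 0.0135 and 0.019 on the right, over the wild-type mean. With the reads of both strains divided by those of wild type at 0 min, the differences between strains were 0.00855 at 20 min and 0.0259 at 40 min (exact permutation p = 0.667 for each).

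In 11 segments of up to 50 kb along the interior, the eco1 mean exceeded the wild-type mean in 11 at 20 min and in 11 at 40 min. Both eco1 replicates lay above both wild-type replicates in 11 segments at 20 min and in 8 at 40 min, against 23.4% and 21.8% of the 239 such segments of all 16 chromosome interiors. They lay below them in 0 segments at either time, against 49.4% and 38.1%. At 20 min the difference ranged from 0.0551, at chrV:400001-450000, to 0.17, at the right-hand end (chrV:500001-547000). The right-hand end also had the highest value at 40 min, 0.14, and the first segment at the left (chrV:30001-50000) the lowest, 0.0115.

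The rise of chromosome V was set against that of every other chromosome. At 20 min the difference between strains on chromosome V differed from that on 14 of 15 other chromosomes, above 12 and below 2 of them (limma, Benjamini-Hochberg over 15). The exception was chromosome III, whose interior differed by 0.00999 from chromosome V (adjusted p = 0.152). Chromosomes I and IX rose more, by 0.433 and 0.0665. At 40 min all 15 differed, with III (0.0374 above V, adjusted p = 0.000351) joining I and IX. Wild-type V stood at 0.0102 and 0.00111 at 20 min and at 0.0314 and 0.0328 at 40 min, while wild-type III stood at 0.029 and 0.0205 and then at 0.0225 and 0.0248. In eco1, III stood at 0.127 and 0.122 at 20 min and at 0.136 and 0.131 at 40 min, and V at 0.116 and 0.114 and then at 0.115 and 0.0944. The exception at 20 min is not stable: all 15 chromosomes differed from V without either eco1 replicate of 40 min and after adjustment of the rows for depth at 0 min.

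Along the chromosome, 48 of 52 windows of 10 kb were higher in eco1 than in wild type at 20 min, with a median difference of 0.124 against -0.0146 over all 1213 nuclear windows. Both eco1 replicates lay above both wild-type replicates in 44 windows (84.6%), against 26.5% of all windows. Past an adjusted p of 0.05, 9 windows (17.3%) were called higher by limma, against 4.95% of all windows, and none was called lower, against 1.73% (6.68% of all windows in either direction). Of the 52 windows, 37 had an unadjusted p under 0.05, beside 296 of all 1213 windows.

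The largest difference of the 9 was in the window of DOT6, a repressor of ribosome biogenesis genes, at chrV:330001-340000. Its level was -0.0406 and -0.165 in wild type and 0.163 and 0.0889 in eco1, a difference of 0.229 (SE 0.0465, limma, adjusted p = 0.0264). Next to it lies the window of TSC11, a subunit of TOR complex 2 (chrV:340001-350000), at 0.0111 and -0.0234 in wild type and 0.172 and 0.131 in eco1. The window of FCY21, a purine-cytosine permease (chrV:270001-280000), stood at -0.0121 and -0.0189 in wild type and at 0.151 and 0.203 in eco1. In each of these windows the wild-type replicates lie near or below the nuclear median and both eco1 replicates above them.

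The other windows lie on both arms. On the left lie the windows of SDD1 (chrV:40001-50000, difference 0.171) and of GDA1, the guanosine diphosphatase of the Golgi (chrV:70001-80000, 0.167). Just right of the centromere lie those of PAC2, a tubulin folding factor (chrV:160001-170000, 0.18), and FAA2, a fatty acyl-CoA synthetase (chrV:180001-190000, 0.182). Farther right are those of SPR6, a gene expressed in sporulation (chrV:390001-400000, 0.156), and COX15, needed for haem A synthesis (chrV:450001-460000, 0.137). The adjusted p of the 9 windows ran from 0.0148 to 0.0493, none passed 0.01, and the count is fragile: it was 0 without either eco1 replicate of 20 min or wild-type replicate 2 of 20 min, 1 without wild-type replicate 1 of 20 min, 5 without either wild-type replicate of 40 min and 26 without either eco1 replicate of 40 min.

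Only 4 windows had a lower mean in eco1 at 20 min, and in each of them both eco1 replicates lay below both wild-type replicates (7.69% of the windows, against 35.4% of all nuclear windows); none was called. These are the windows of YEA6, a mitochondrial carrier of NAD+ (chrV:140001-150000), YNCE0021C (chrV:430001-440000), YER138C (chrV:440001-450000) and YER160C (chrV:490001-500000). In the window of YEA6 wild type stood at 0.237 and 0.164 and eco1 at 0.0634 and 0.146. That of YER160C stood at 0.108 and 0.225 in wild type and at 0.031 and 0.0281 in eco1. In all 4 windows both wild-type replicates lay above the nuclear median, and those of YEA6 and YER160C hold maxima of the wild-type profile. A high wild-type level did not always go with a lower eco1 mean. In the window of ECM10 (chrV:90001-100000) wild type stood at 0.256 and 0.158 and eco1 at 0.244 and 0.227. The windows of YER138C and YER160C rest on 5 rows each, since their other rows hold no read.

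At 40 min, 45 of 52 windows were higher in eco1, with a median difference of 0.0704 against -0.0102 over all windows. Both eco1 replicates lay above both wild-type replicates in 37 windows (71.2%), against 21.8% of all windows. They lay below them in 0 windows, against 26.9%. No window was called by limma, while 2.8% of all windows were called higher and 0.577% lower (3.38% in either direction). An unadjusted p under 0.05 was found in 22 of the 52 windows, beside 240 of all 1213. The count was 10 (9 higher and 1 lower) without eco1 replicate 1 of 40 min. The highest difference was again in the window of DOT6, 0.178 (adjusted p = 0.0864), at -0.0221 and -0.0427 in wild type and 0.141 and 0.151 in eco1. From 20 to 40 min no window was called in wild type or in eco1, where 0.247% and 0.0824% of all windows were called. An unadjusted p under 0.05 was found in 12 of the 52 windows in wild type and in 1 in eco1. Among all 1213 windows it was found in 137 and 28.

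**Figure D3:**
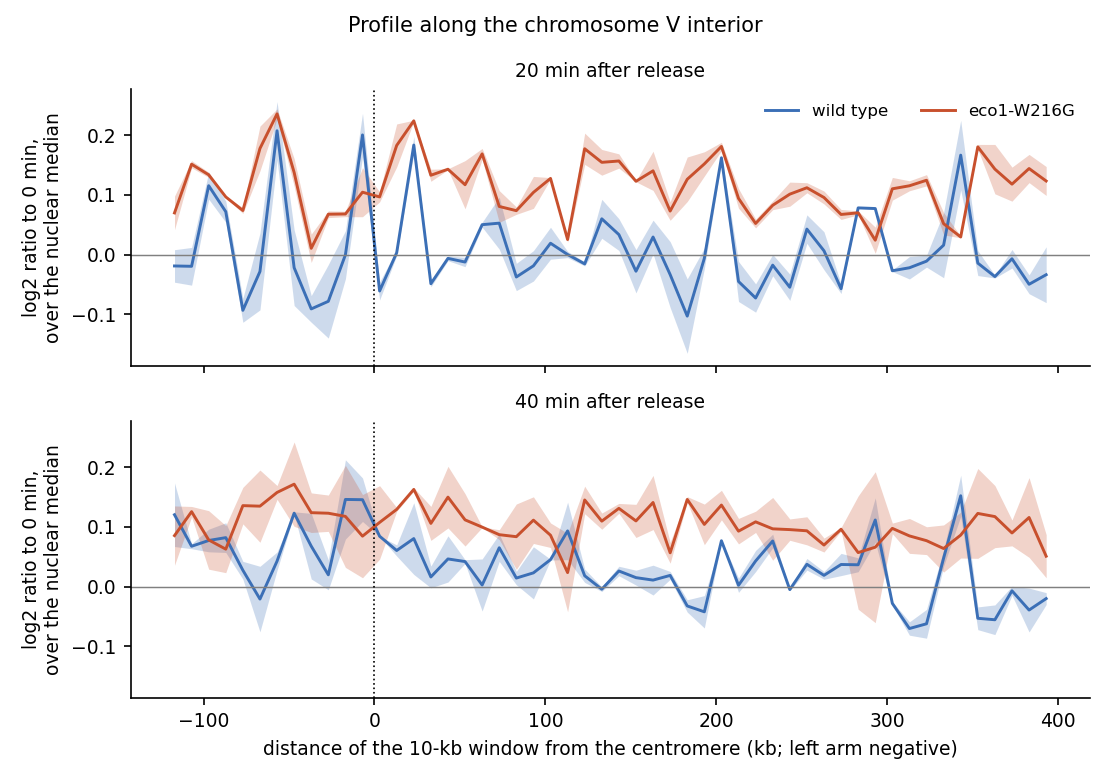
Mean log2 ratio to 0 min over the nuclear median (y axis) of 10-kb windows along the chromosome V interior, against distance from the centromere (x axis, kb), at 20 min (top) and 40 min (bottom). Lines are means of 2 replicates and bands span them; the eco1 line lies above the wild-type line in 48 of 52 windows at 20 min and in 45 at 40 min.

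To look at shape alone, each column was next centred on the median of its own chromosome. No chromosome V window was then called at 20 or 40 min, where limma called 0.33% and 0.165% of all windows. An unadjusted p under 0.05 was found in 8 of the 52 windows at 20 min and in 5 at 40 min. Among all 1213 windows it was found in 180 and 158. At 20 min both eco1 replicates lay above both wild-type replicates in 11 windows (21.2%, against 21.4% of all windows) and below them in 14 (26.9%, against 31.9%), so window by window the shape differed between strains about as often as elsewhere in the genome. The largest shifts were in the windows of YER160C (-0.26, adjusted p = 0.154) and YEA6 (-0.22, adjusted p = 0.21).

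A property of the libraries moves with the strain in these profiles. Over the 52 windows, the ratios were set against the 0-min reads of the other replicate of the same strain, as a description of windows that share libraries. Pearson's r was -0.268 and -0.451 in wild type at 20 min and 0.594 and 0.476 in eco1 at 20 min. At 40 min it was -0.528 and -0.696 in wild type and -0.377 and 0.721 in the eco1 replicates. Windows that were deep at 0 min thus ran low in all 4 wild-type columns and high in 3 of 4 eco1 columns. The maxima, minima, spread, correlations, gene places and rows around the centromere below are therefore also given after a quadratic in the 0-min depth of the other strain, fitted over all nuclear rows, had been subtracted from each column; this step was chosen after the data had been seen, and it left the difference in level at 0.12 at 20 min and 0.0865 at 40 min. After it, 50 of the 52 windows had a higher mean in eco1 at 20 min and 50 at 40 min.

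The wild-type profile at 20 min had 12 maxima and 13 minima with a prominence of at least 0.1 in a 5-kb running mean, and 7 of the 8 highest and the 6 lowest are named here by the nearest gene. Heights are given over the median of the chromosome V interior in the same column, so the level is taken out. Since the wild-type 20-min columns chose them, their wild-type heights at that time are a description. So are the counts of places where the strains do not overlap, which this choice favours.

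On the left arm the highest maximum lay 57.5 kb from the centromere at ECM10, a mitochondrial Hsp70 (chrV:94001-95000). It stood at 0.341 and 0.273 in wild type and at 0.0581 and 0.0283 in eco1. The maximum at RML2, a protein of the large mitochondrial ribosomal subunit (chrV:60001-61000), stood at 0.226 and 0.251 in wild type and at -0.00161 and 0.0226 in eco1. After the depth adjustment ECM10 read 0.0898 and 0.0568 and RML2 0.0693 and 0.0864 in eco1, still below wild type (0.339 and 0.266, and 0.214 and 0.22). The maxima nearest the centromere flank it. That at YEA6, 7.5 kb to the left (chrV:144001-145000), stood at 0.297 and 0.21 in wild type and -0.085 and 0.0182 in eco1, and that at YER010C, 21.5 kb to the right (chrV:173001-174000), at 0.327 and 0.173 in wild type and 0.141 and 0.0923 in eco1.

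Farther along the right arm the maximum at YNCE0018W, a tRNA gene 202.5 kb from the centromere (chrV:354001-355000), stood at 0.246 and 0.237 in wild type and at 0.0524 and 0.093 in eco1. At DSE1, a gene for daughter-cell separation (chrV:408001-409000), wild type stood at 0.0919 and 0.173 and eco1 at -0.0568 and -0.0461. That at YER159C-A (chrV:498001-499000) beside a stretch without reads, stood at 0.215 and 0.115 against -0.0804 and 0.00345. Both eco1 replicates lay below both wild-type replicates at each of these 7 maxima as deposited. After the depth adjustment YER159C-A read 0.192 and 0.0544 in wild type and 0.0213 and 0.0948 in eco1, and the strains overlapped there.

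Over all 12 maxima the median height at 20 min was 0.149 in wild type and -0.00604 in eco1, and both eco1 replicates lay below both wild-type replicates at 10. With the depth adjustment the medians were 0.122 and 0.0606, and 8 of 12 did not overlap. Choosing places for a high wild-type value favours lower eco1 values there, so these counts cannot be read as a test. Among 10-kb windows, which were not so chosen, both eco1 replicates were lower in 26.9% on chromosome V and in 31.9% of all, after each chromosome was centred. At 40 min the median height of the 12 places was 0.0937 in wild type and -0.0168 in eco1 as deposited, and 0.0439 and 0.00997 after adjustment.

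A place chosen for its height in a column tends to be lower in any other, so maxima were chosen in 1 wild-type replicate and read in the other columns. The 14 maxima of replicate 1 averaged 0.169 there, 0.0888 in wild-type replicate 2, and 0.00559 and 0.0207 in eco1 at 20 min. The 23 maxima of replicate 2 averaged 0.115 there, 0.049 in wild-type replicate 1, and -0.023 and -0.0336 in eco1. The mean gap between eco1 and the wild-type replicate that had not chosen them was -0.0767 as deposited and -0.0478 after the depth adjustment.

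The same was done for minima. The lowest, at UTR4 of the methionine salvage pathway (chrV:80001-81000), stood at -0.0956 and -0.195 in wild type and at 0.0366 and -0.0452 in eco1. At DOT6 (chrV:334001-335000) the values were -0.112 and -0.176 against 0.0839 and -0.0253. At FMP52, 7.5 kb right of the centromere (chrV:159001-160000), they were -0.115 and -0.117 against 0.0376 and 0.0109. CHD1, a chromatin remodeller (chrV:505001-506000), read -0.0536 and -0.124 against 0.0838 and 0.0743. The minima at PXP1, of peroxisomes (chrV:118001-119000), and SPR6 (chrV:394001-395000) also had higher means in eco1, -0.07 against -0.124 and -0.0568 against -0.118, and at SPR6 the strains overlapped. After the depth adjustment CHD1 read 0.0191 and 0.0147 in eco1, against -0.038 and -0.0896 in wild type. PXP1 then read -0.0767 and -0.12 in eco1 against -0.103 and -0.119 in wild type, so the strains overlapped there and at SPR6, and at the other 4 named minima they did not. Over all 13 minima the median was -0.088 in wild type and 0.00259 in eco1, and -0.0885 and -0.00888 after the depth adjustment, with both eco1 replicates above both wild-type replicates at 9 and 8 of 13. The choice by low wild-type values favours this too. Among 10-kb windows, which were not so chosen, it held as deposited in 21.2% on chromosome V and in 21.4% of all, after each chromosome was centred. Read in columns that had not chosen them, the gaps were smaller: the 15 minima of wild-type replicate 1 averaged -0.101 there, -0.0237 in wild-type replicate 2, and 0.00894 and -0.0214 in eco1, and the 23 of replicate 2 averaged -0.116 there, -0.0249 in replicate 1, and 0.00858 and 0.00236 in eco1. With the depth adjustment little or no gap remained. The 14 minima of replicate 1 then averaged -0.0173 in wild-type replicate 2 and 0.00229 and -0.0483 in eco1, and the 20 of replicate 2 averaged -0.016 in wild-type replicate 1 and -0.0115 and -0.00731 in eco1.

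**Figure D4:**
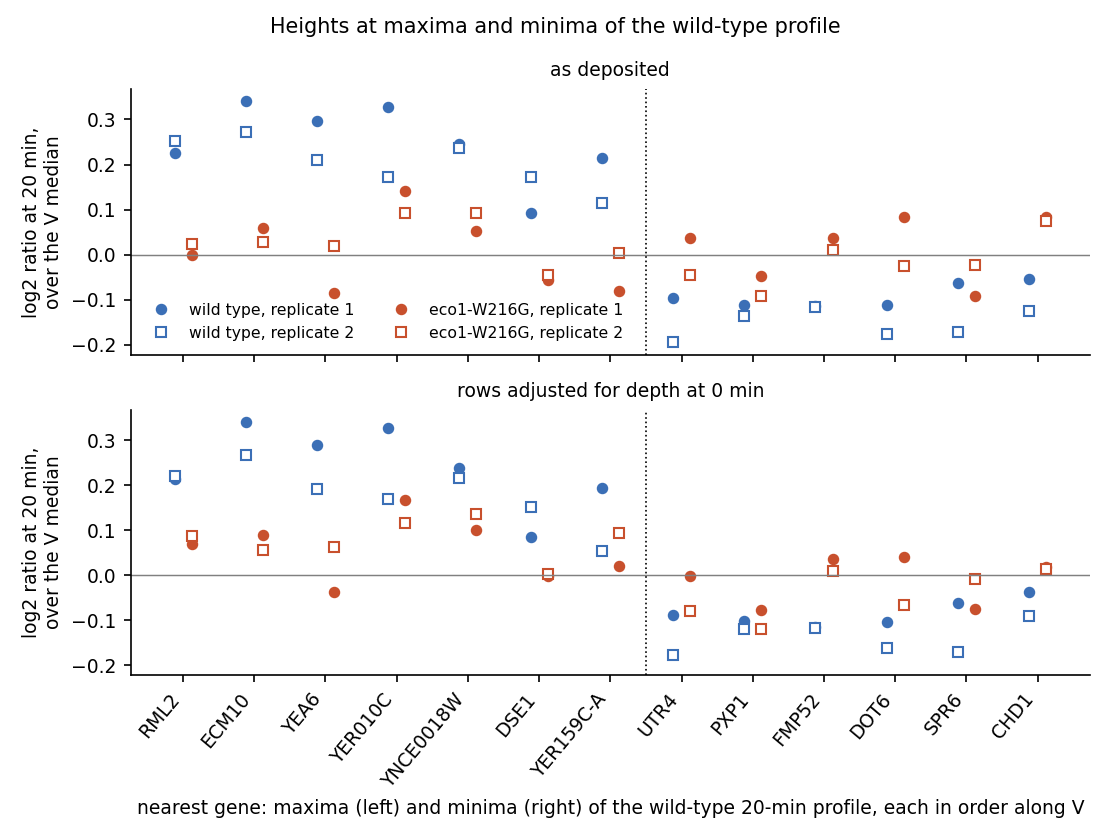
Height of the profile at 20 min over the chromosome V median (y axis, log2) at 7 maxima and 6 minima of the wild-type profile, named by the nearest gene (x axis), as deposited (top) and after adjustment for depth at 0 min (bottom). Each symbol is 1 replicate. At all 7 maxima both eco1 symbols lie below both wild-type symbols as deposited, and at YER159C-A they overlap after adjustment. The wild-type columns shown chose these places, which favours such gaps.

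As a measure of how strongly the profile rises and dips, the SD over the 52 windows at 20 min was 0.0787 and 0.0814 in wild type and 0.0523 and 0.054 in eco1, against 0.023 to 0.028 from counting error. The difference of -0.0269 has an exact permutation p of 0.33, the smallest that 2 against 2 allows, and both eco1 replicates lay below both wild-type replicates on 10 of 16 chromosomes, so this is not particular to chromosome V. At 40 min the SD was 0.0453 and 0.0733 in wild type and 0.0446 and 0.0609 in eco1, which overlap. With the depth adjustment it was 0.0771 and 0.0744 against 0.043 and 0.0487 at 20 min. At 40 min it was then 0.0397 and 0.0532 in wild type and 0.0396 and 0.0387 in eco1, which no longer overlap, though the nearest values almost meet. In 20-kb windows the difference at 20 min shrank to -0.00807.

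How alike the columns are was described by Pearson's r over the 52 windows, which share libraries, depth and base composition. Between the replicates of 20 min it was 0.699 for wild type and 0.718 for eco1 as deposited, and 0.688 and 0.631 after the depth adjustment. Between strains at 20 min r ran from 0.0437 to 0.474 as deposited and from 0.406 to 0.707 after the depth adjustment. The eco1 replicates of 40 min went against each other, with r = -0.346 as deposited and 0.0157 after the adjustment, while for the wild-type replicates it was 0.67 and 0.531. The shape of the eco1 profile at 40 min was thus not repeated between replicates, and its means at single places carry that spread.

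Genes of the interior were used as places along it, each read over the gene and 2.5 kb on either side. Of 11 places of cohesion, kinetochore and repair genes, 10 had a higher mean in eco1 at 20 min, with a median difference of 0.123, close to the 0.124 of all chromosome V windows. RAD23, of nucleotide excision repair (chrV:81407-82603), had the largest difference, 0.256, with -0.0626 and -0.161 in wild type and 0.189 and 0.0998 in eco1. SCC4, part of the cohesin loader (chrV:462968-464842), stood at -0.0428 and -0.0104 in wild type and at 0.141 and 0.137 in eco1. GLC7, the protein phosphatase 1 catalytic subunit (chrV:432495-433958), was the place with a lower mean, at 0.0701 and 0.0315 in wild type and 0.00257 and 0.0304 in eco1. No window holding a gene of this list was called, beside 17.3% of chromosome V windows and 6.68% of all windows that were called. After the depth adjustment all 11 places had a higher mean, with a median of 0.121 against 0.124 for the windows.

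All 10 places of metabolic genes had a higher mean in eco1 at 20 min, with a median difference of 0.135, and 3 lie in called windows, beside 17.3% of chromosome V windows and 6.68% of all windows that were called: TRP2 of tryptophan synthesis (0.247), MET6, the methionine synthase (0.212), and HEM14 of haem synthesis (0.204). URA3 of pyrimidine synthesis (chrV:116167-116970) stood at -0.112 and -0.0696 in wild type and at 0.0332 and -0.0236 in eco1. Of 9 places of transcription and chromatin genes 6 had a higher mean, with a median difference of 0.116, and HAT2, of a histone acetyltransferase complex, lies in a called window. GCN4, the activator of amino acid synthesis genes (chrV:138918-139763), was lower, at 0.184 and 0.13 in wild type and 0.0692 and 0.0643 in eco1. With the depth adjustment 10 of 10 metabolic places (median 0.118) and 8 of 9 transcription and chromatin places (median 0.0997) had a higher mean.

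At the 19 tRNA genes the difference was smaller than along the chromosome as a whole, with a median of 0.0433 and a higher eco1 mean at 11. Their median level at 20 min was 0.0691 in wild type, above that of the 3 gene lists (-0.0311 to -0.00622), and 0.105 in eco1, where the lists lie at 0.125 to 0.139. No tRNA gene lies in a called window, beside 17.3% of chromosome V windows and 6.68% of all windows that were called at 20 min. At 40 min the median difference was 0.0342 at tRNA genes, 0.0978 at cohesion, kinetochore and repair genes, 0.0859 at metabolic genes and 0.058 at transcription and chromatin genes, against 0.0704 over all chromosome V windows. The low values at tRNA genes were largely absent after the depth adjustment: 17 of 19 then had a higher mean in eco1 at 20 min, with a median difference of 0.096 against 0.124 for the windows, and 18 of 19 at 40 min, with 0.105 against 0.0843.

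Around the centromere, the 10 rows to its left stood at 0.226 and 0.127 in wild type and at 0.0468 and 0.153 in eco1 at 20 min, and the 10 rows to its right at -0.115 and -0.0798 in wild type and at 0.118 and 0.124 in eco1. The left-hand rows thus overlap between strains and the right-hand rows do not, and the same held after the depth adjustment, with 0.214 and 0.0981 in wild type and 0.109 and 0.211 in eco1 on the left and -0.116 and -0.0828 against 0.127 and 0.134 on the right. Within 50 kb on each side the level was 0.00851 and 0.00276 in wild type and 0.113 and 0.127 in eco1, close to that of the whole interior.

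The 10 rows left out form 2 stretches, chrV:444001-449000 and chrV:493001-498000, with no read in any library. In the 20 rows that flank the first, eco1 stood at 0.094 and 0.0686 and wild type at 0.0437 and 0.0362 at 20 min. In those around the second, eco1 stood at 0.0845 and 0.107 and wild type at 0.0262 and 0.058. On the 2 sides of the border 30 kb from the left end, the first 5 rows inside averaged 0.00917 in wild type and 0.133 in eco1 at 20 min, and the last 5 outside -0.0362 and 0.179. At 40 min these were 0.0751 and 0.127 inside and 0.00183 and 0.131 outside. On the right the last 5 inside averaged -0.0762 and 0.142 at 20 min, and the first 5 outside -0.000617 and 0.169. At 40 min the right-hand rows stood at -0.0774 and 0.0569 inside and at 0.0494 and 0.0669 outside, so both wild-type replicates were higher outside the border and the strains lay closer together there.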

How the data were processed

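Genomic DNA of both strains was sequenced as Nextera XT libraries, per the labels' protocols. Per the submitters' processing notes, which give no roles, CASAVA 1.8.2, Bowtie and the build sacCer3 were used. The authors deposited 1 table with log2 ratio values for 12165 rows of 1000 bp. The log base, a pseudocount of 1 RPM and the 0-min denominator are not named in the header and were settled from the values, from which whole reads of all 12 libraries were recovered; 2 to 4 rows had no solution and 39 to 58 had several, and none of the unsolved rows lies in the chromosome V interior. The deposited smoothed columns (a score) were not used. 

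Columns were centred on their nuclear median. Means were tested with limma 3.58.1 (R 4.3.3), with 4 groups of 2 columns, on those of 16 chromosome interiors and of 1213 windows of 10 kb, before and after each chromosome was centred, with Benjamini-Hochberg adjustment and a threshold of 0.05. Tested on simulated data for 20 min, windows changed by 0.1, 0.2, 0.4 and 0.8 were called in 24%, 78%, 100% and 100% of cases. There were 3 false calls among 1013 unchanged windows. Of simulated rows 3000 of 3000 were recovered, and 8 of 8 simulated peaks were found. Those peaks had a height of 0.25, above the median of 0.149 at the wild-type maxima, and lower peaks were not simulated.

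The members, gene lists and alternatives were chosen with earlier results of these data known. Named were the 8 highest maxima (1 is not reported here) and 6 lowest minima of the wild-type 20-min profile, up to 10 called windows per contrast and fixed gene lists; other windows, and single genes of the lists, were picked after their values had been seen. Gene names come from RefSeq (R64). Origins, Ty elements and sequences were not analysed here.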

Additional observations from a re-analysis of the deposited data

How the results depend on the processing

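The difference in level between strains kept its sign and its call in all 21 alternatives at 20 min (0.0827 to 0.137, limma adjusted p up to 8.96e-05) and in all 21 at 40 min (0.0357 to 0.1, adjusted p up to 0.00429), and the comparison with each other chromosome kept 14 or 15 of 15 calls at 20 min and 15 at 40 min. The change from 20 to 40 min is less settled. The wild-type change passed the threshold with no centring (0.0309), mean centring (0.0258), equal SD (0.0388) and the depth adjustment (0.0209), and ran from 0.0219 to 0.031 with 1 column left out, passing without either eco1 replicate of 40 min. The difference between the strains' changes passed with mean centring (-0.0372), equal SD (-0.047) and the depth adjustment (-0.0339), and ran from -0.0473 to -0.0269 with 1 column left out, passing without eco1 replicate 1 of 40 min. The level at 0 min ran from 0.0168 to 0.0259 with 1 library left out. Arm differences kept their sign in all alternatives (0.00855 to 0.0329 at 20 min, 0.0248 to 0.0702 at 40 min). Another centring, or leaving out a column of the other time, cannot change an arm difference, so those alternatives do not test it. A replicate block and a fit on 1 time were not run for them, since the exact test uses 1 time and no block.

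The count of 9 called windows at 20 min became 22 with centring on chromosomes other than I, III, V and IX, 3 in 5-kb and 14 in 20-kb windows, 16 after a filter on rows far from the running median, 23 with only the columns of 20 min, 20 with the depth adjustment and 0 at an adjusted p under 0.01. It ran from 0 to 26 with 1 column left out. At 40 min the count of 0 became 3 with that centring, 1 with equal SD, 4 in 20-kb windows, 1 with the filter and 1 with the depth adjustment, and ran from 0 to 10 with 1 column left out. After centring each chromosome, 3 windows were called, all lower, with equal SD and 3, all lower, with only the columns of 20 min, and 0 to 4 at 40 min with 1 column left out. The profile contrast at 20 min (-0.0269) was -0.0243 in 5-kb windows, -0.00807 in 20-kb windows and -0.0299 with the depth adjustment; at 40 min (-0.00656) it ran from -0.0206 to 0.00742 with 1 column left out. The gap at wild-type maxima (-0.0767) was -0.108 at a prominence of at least 0.15, -0.0902 with a 9-kb running mean and -0.0478 with the depth adjustment. The causes of these shifts were not tested.

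A replicate block left 5 windows called at 20 min and changed no other call among the levels and windows it was run on. Replicate numbers do not pair the columns across strains: the differences between replicates 1 and 2 correlated over windows at 0.0949 for both strains at 20 min and at -0.147 at 40 min. Within a strain the 20- and 40-min columns share a 0-min library, with correlations of 0.523 in wild type and 0.181 in eco1. The arms from gene names, the depth adjustment, and leaving out columns for the comparison with other chromosomes, the 0-min level, the contrast and the peaks were added after the data had been seen. With 2 libraries a group, exact tests cannot go below p = 0.33. Windows changed by 0.1, about the shift of the chromosome, were called in 24% of simulated cases, where columns were independent and other windows changed by more.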
